A study of Mus musculus with 12 samples.

Results

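The mRNA levels of 10 heat shock proteins and cytosolic chaperones were followed in mouse blastocysts, taken by symbol from the 34245 genes of the deposited mRNA-Seq table: Hsp90ab1, Hsp90aa1, Hspa8, Hspa1a, Hspa1b, Hsph1, Dnajb1, Hspd1, Hspe1, and Hspb1. All 10 were present. The embryos came from crosses of F1 hybrid (C57Bl6 x CBA/W) mice and were cultured from the 2-cell stage in KSOM medium with amino acids. At E3.5 they were moved into medium with the p38-MAPK inhibitor SB220025 at 20 µM (p38-MAPKi) or with its solvent DMSO alone (control), and were collected 4, 7, or 10 h later. All times are hours from E3.5. The kinase p38-MAPK is activated by cell stress. Each of the 6 groups held 2 libraries, and each library was made from the poly(A) RNA of 30 pooled blastocysts, so trophectoderm and inner cell mass were measured together. In such pools, fewer cells of a type and less RNA per cell cannot be told apart, and without spiked-in RNA every value is a share of its library.

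Cytosolic chaperones bind unfolded proteins and return them to their native fold. HSP70 proteins take up short exposed stretches with the help of J-domain partners and nucleotide exchange factors, and HSP90 completes the fold of kinases and nuclear receptors that HSP70 passes on. HSP60 and HSP10 form a closed folding chamber in mitochondria, small heat shock proteins such as HSPB1 hold unfolded proteins without ATP, and the transcription factor HSF1 raises many of these genes under heat or protein damage by binding heat shock elements, which are inverted repeats of the bases GAA. HSPB1 is also a textbook target of the p38-MAPK pathway, since p38-MAPK activates the kinase MAPKAPK2, which phosphorylates it. These libraries measured mRNA and no phosphorylation.

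The upstream sequences below are shown because they hold the letters of a heat shock element, and because those of Hspa1a and Hspa1b are nearly the same. RefSeq (GRCm38.p6) promoter windows were given for 7 of the 10 genes, those of Hspa1a, Hspa1b, Hspb1, Hspe1, Hspd1, Hsph1, and Dnajb1. The 250 bases before each start were searched for GAANNTTC and TTCNNGAA, each of which reads the same on both strands, and overlapping matches were counted. Capitals mark the matched letters, and all sequences run 5′ to 3′ on the strand of the gene. The first 3 windows are the 150 bases before the start, chr17:34972157-34972306 (minus strand, Hspa1a), chr17:34959239-34959388 (minus strand, Hspa1b), and chr5:135887769-135887918 (plus strand, Hspb1). None of them overlaps an exon in GENCODE M21. The last 2 are 30-base sites, chr1:55088053-55088082 (plus strand, Hspe1) within an annotated exon of Hspd1, and chr5:149636351-149636380 (minus strand, Hsph1), which overlaps an Hsph1 exon.
Hspa1a: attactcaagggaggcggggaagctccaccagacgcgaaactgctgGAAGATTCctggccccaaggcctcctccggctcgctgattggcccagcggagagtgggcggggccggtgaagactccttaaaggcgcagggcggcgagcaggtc
Hspa1b: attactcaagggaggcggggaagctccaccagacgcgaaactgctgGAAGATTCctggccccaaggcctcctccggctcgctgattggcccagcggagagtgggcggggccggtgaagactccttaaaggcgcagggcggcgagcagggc
Hspb1: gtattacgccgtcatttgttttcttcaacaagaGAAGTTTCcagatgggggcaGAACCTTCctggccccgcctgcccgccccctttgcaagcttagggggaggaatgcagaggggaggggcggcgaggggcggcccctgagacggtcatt
Hspe1: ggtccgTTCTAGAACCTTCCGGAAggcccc
Hsph1: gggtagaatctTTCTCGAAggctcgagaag

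Upstream of Hspe1, 3 overlapping matches began 89, 84, and 79 bases before the start. They made 1 run that holds the longer motifs TTCNNGAANNTTC and GAANNTTCNNGAA. Hspd1 lies head to head with Hspe1, the annotated genes overlap by 112 bases, and the same run lay upstream of the second RefSeq start of Hspd1, 311 bases within the gene. The window of its first start, at the end of the annotated gene, held no match. Hspb1 had matches 117 and 97 bases before its start, Hspa1a and Hspa1b had 1 match each at 104 bases, and Hsph1 had 1 at 33 bases. The printed Hspa1a and Hspa1b windows differed at 1 base, T149G (Hspa1a base first, counted from 1 at the 5′ end of the window). Both windows of Dnajb1 held no match, which says only that these letters are not in those 250 bases. Of all 32851 RefSeq promoter windows, 12.8% held the shorter motif and 0.466% the longer one. A match is a description of the letters and not a measured binding site.

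The libraries held between 11242313 and 24457312 reads, as recovered from the deposited log2 RPKM (reads scaled by transcript length and library size). The shallowest was the first p38-MAPKi library at 7 h, whose replicate had 17435561 reads. Across all genes, its log2 values had a correlation of 0.954 with those of its replicate, against 0.978 to 0.984 within the other groups. Markers of the tissue were present, with Pou5f1, of the epiblast, at 350 to 503 RPKM and Krt18, of the trophectoderm, at 909 to 1399. Gata6, of the primitive endoderm list, held 80.9 to 129, but the paper describes GATA6 also in uncommitted inner cell mass cells. Gata4 and Sox17 held 1.07 to 3.86 and 1.16 to 4.38 RPKM, Sox7 at most 0.436, and Elf5, of the trophectoderm list, at most 0.826. Of 8 cumulus and granulosa cell genes, Amhr2 alone passed 1 RPKM in 2 libraries, and none of 7 blood genes did.

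The chaperone mRNAs spanned a wide range in RPKM, which is scaled per length. Levels of different genes also depend on how reads shared with other genes were counted, which is not known. Of the 50-base windows of the transcripts, 3.44% occur in another gene for Hsp90ab1, 47.5% for Hsp90aa1, and 66.3% for Hspa1a. The part of this in the order below was not tested. Hsp90ab1 was the most abundant of them, with a mean of 1878 RPKM over the 12 libraries, and ranked 5 of all 34245 genes. Next came Hsp90aa1 at 600 RPKM (rank 30), Hspa8 at 183 (rank 202), Hspd1 at 176 (rank 218), Hspe1 at 75.9 (rank 675), and Hsph1 at 60.0 (rank 921). Hspb1 at 27.1 and Dnajb1 at 21.9 RPKM followed. The heat-inducible HSP70 genes stood far below, Hspa1b at 0.708 and Hspa1a at 0.137 RPKM. Most steps of this order were kept library by library. The exceptions were Hspa8 over Hspd1, seen in 8 of 12 libraries, Hspe1 over Hsph1 in 9, Hspb1 over Dnajb1 in 7, and Hspa1b over Hspa1a in 11. Together the 10 genes took between 0.861% and 1.11% of the reads of a library, and Hsp90ab1 alone took 0.481% to 0.669%.

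**Figure D1:**
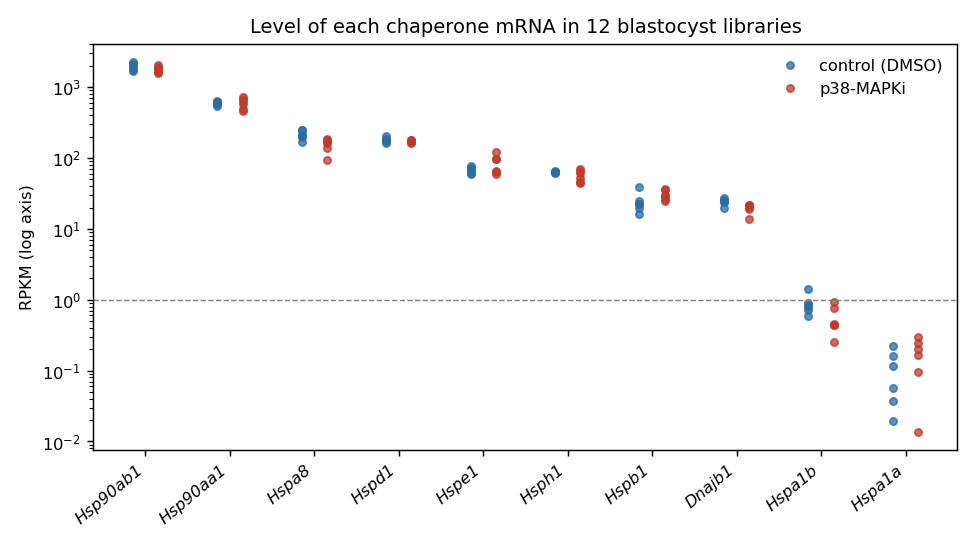
Level of each chaperone mRNA in RPKM (log axis) in the 6 control and 6 p38-MAPKi libraries, 1 point per library, with genes in order of their mean. Hsp90ab1 stands at 1603 to 2232 RPKM and the stress-inducible pair Hspa1b and Hspa1a between 0.0138 and 1.41 RPKM, around and below the filter of 1 RPKM (dashed line).

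Between p38-MAPKi and control, 8 of the 10 genes had at least 1 RPKM in at least 2 libraries and were tested. Hspa1a and Hspa1b were not. With limma and a Benjamini-Hochberg adjusted p under 0.05, 0 of the 8 were called at 4 h, where 0.909% of all genes tested were called. At 7 h 0 of 8 were called, against 2.13% of all genes, and at 10 h 0 of 8, against 0.803%. Without adjustment, 0, 4, and 4 of the 8 had a limma p under 0.05 at these times, where 9.42%, 28.4%, and 19.8% of all genes did. Voom, a limma fit weighted by the recovered reads, called 0, 3, and 3 of the 8, and 0.306%, 15.9%, and 4.82% of all genes. Pools were the only replicates. The paper calls them biological duplicates, and nothing in the labels says whether they came from separate matings. The p-values at 7 h and 10 h rest on the spread between the 2 pools of each group, moderated over genes, those at 4 h on the spread common to genes of like level, and those of the effect over all time points on the 12 libraries.

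The directions differed among the members. The p38-MAPKi libraries lay above both control libraries for 1, 2, and 1 of the 8 tested genes at 4 h, 7 h, and 10 h, against 26.8%, 23.0%, and 22.6% of all genes. They lay below for 0, 4, and 5 of the 8, against 13.7%, 38.7%, and 29.6%. With each library centred on its median, the median of all genes at 7 h moved to 0.05, and Dnajb1 stood at -0.33 and Hsph1 at -0.30. As deposited, the median log2 fold change of the 8 was 0.02, -0.14, and -0.16, beside 0.07, -0.14, and -0.02 over all genes tested. The mean was lower after p38-MAPKi at all 3 time points for Hspa8 and Dnajb1 (2 of 8, against 19.9% of all genes) and higher at all 3 for Hspb1 (1 of 8, against 16.7%).

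**Figure D2:**
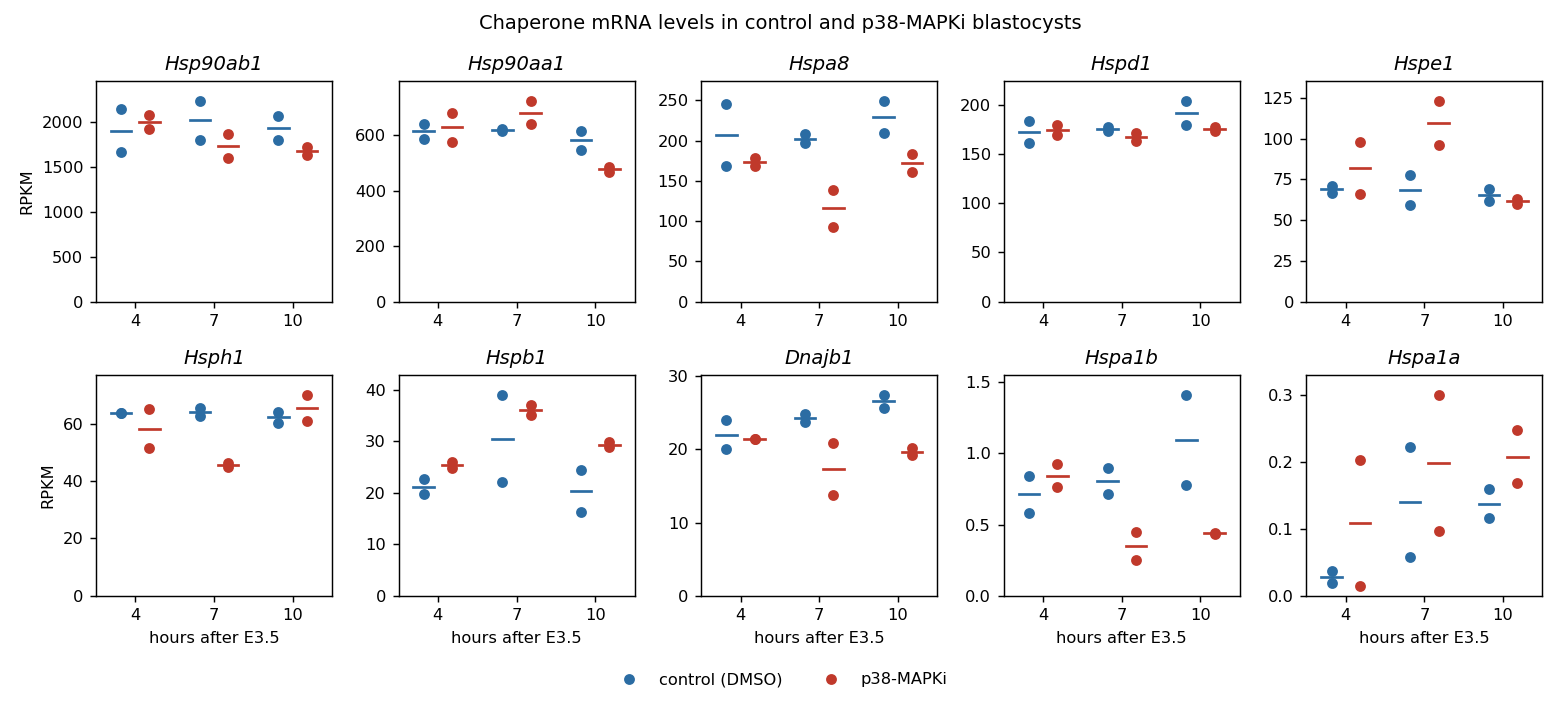
RPKM of each chaperone (linear axes from 0) by hours after E3.5, 1 point per library and a bar at the mean of the 2 libraries of a group. Hspa8 shows its lowest values, 92.7 and 139 RPKM, in the p38-MAPKi libraries at 7 h, and Hspe1 its highest, 123 RPKM, in 1 of the same libraries.

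Among the HSP90 genes, Hsp90ab1 encodes the constitutive cytosolic HSP90 beta (ENSMUSG00000023944.14; chromosome 17, 45567775 to 45573271, GRCm38). In control blastocysts it held 1668 and 2139 RPKM at 4 h, 1800 and 2232 at 7 h, and 1800 and 2065 at 10 h. After p38-MAPKi it held 1922 and 2081, 1603 and 1866, and 1636 and 1725 RPKM. The groups overlapped at the first 2 time points and parted at 10 h, where both p38-MAPKi libraries were the lower. The log2 fold change there was -0.20 (95% interval -0.40 to 0.01; limma adjusted p = 0.262), and -0.30 or -0.10 without the first or the second control library. Over the 12 libraries its level varied 1.39-fold from lowest to highest, less than any other member except Hspd1.

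Hsp90aa1 encodes the stress-responsive isoform HSP90 alpha (ENSMUSG00000021270.13; chromosome 12, 110690605 to 110702728). Control blastocysts held 587 and 640 RPKM at 4 h, 623 and 614 at 7 h, and 547 and 616 at 10 h. After p38-MAPKi the values were 576 and 680, 639 and 723, and 468 and 485 RPKM. The p38-MAPKi libraries thus lay above the controls at 7 h and below them at 10 h. The log2 fold changes were 0.14 (limma adjusted p = 0.650), which was -0.25 after quantile normalization, and -0.29 (adjusted p = 0.120), and the difference between them was -0.42 (95% interval -0.80 to -0.05; limma adjusted p = 0.153).

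Within a library, Hsp90ab1 exceeded Hsp90aa1 2.84- to 3.63-fold in the 6 control libraries. After p38-MAPKi the ratio of RPKM was 3.34 and 3.06 at 4 h, 2.51 and 2.58 at 7 h, and 3.5 and 3.56 at 10 h. Both values at 7 h lay below, and both at 10 h above, the controls of the same time, 2.89 and 3.63 and then 3.29 and 3.35. With 2 libraries against 2, the smallest p an exact permutation test allows is 0.333, so the ratios are given without a test. Their size also depends on how reads shared with other genes were counted, which is not known.

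Hspa8 encodes HSC70, the constitutive HSP70 of the cytosol (ENSMUSG00000015656.17; chromosome 9, 40800984 to 40810087). Control libraries held 169 and 245 RPKM at 4 h, 197 and 208 at 7 h, and 209 and 249 at 10 h. The p38-MAPKi libraries held 178 and 168, 92.7 and 139, and 161 and 183 RPKM. The groups overlapped at 4 h, and at both later times both p38-MAPKi libraries were below both controls. The means were 203 ± 8.0 against 116 ± 32.4 RPKM at 7 h and 229 ± 28.5 against 172 ± 15.5 RPKM at 10 h (SD, n = 2 each).

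The Hspa8 log2 fold change at 7 h was -0.84 (95% interval -1.33 to -0.35; limma adjusted p = 0.0614), the largest in size among the 8 tested members at any time point on the deposited scale. With each library centred on its median, Hspe1 at 7 h (0.88) was larger than Hspa8 (-0.64). At 10 h it was -0.41 (-0.65 to -0.16; adjusted p = 0.108), while a single effect over the 3 time points came to -0.49 (-0.78 to -0.20; adjusted p = 0.0623). At 7 h the lower library was the shallow one. Without it the log2 fold change was -0.55, and the call at this time changed with the processing, since the adjusted p ran from 0.00349 to 0.170 over the other settings with all libraries.

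Hspa1a and Hspa1b encode the stress-inducible HSP70 (ENSMUSG00000091971.3, chromosome 17, 34969190 to 34972156; ENSMUSG00000090877.3, chromosome 17, 34956436 to 34959238). They lie 9951 bases apart on the same strand. Of the 50-base windows of Hspa1a transcripts 66.3% occur in another gene, and of those of Hspa1b 62.3%, mostly in each other, so the reads of the pair, 50 bases long, could be split between them by the counting. Over all 12 libraries Hspa1a had 96 reads and Hspa1b 492. A library held 1 to 18 reads of Hspa1a and 8 to 75 of Hspa1b.

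Hspa1b held 28 and 43 reads in control blastocysts at 4 h, 53 and 47 at 7 h, and 75 and 51 at 10 h. After p38-MAPKi it held 52 and 56, 8 and 22, and 27 and 30 reads. In RPKM, both p38-MAPKi libraries at 7 h (0.254 and 0.450) were below both controls (0.896 and 0.718), and those at 10 h (0.437 and 0.438) below 1.41 and 0.781. In a limma fit without the filter on low values, the log2 fold changes were -1.25 (95% interval -2.37 to -0.13; adjusted p = 0.232) and -1.26 (-2.12 to -0.40; adjusted p = 0.295). For Hspa1a, the reads in p38-MAPKi libraries were 10 and 5 at 7 h, against 14 and 4, and 11 and 18 at 10 h, against 9 and 8. With both genes summed, the log2 fold changes were -0.76 (adjusted p = 0.396) and -0.88 (adjusted p = 0.474). The share of the pair's reads assigned to Hspa1a ran from 1.89% to 55.6% between libraries.

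Dnajb1 encodes HSP40, the J-domain partner that feeds HSP70 and a classical heat shock gene (ENSMUSG00000005483.10; chromosome 8, 83608193 to 83612653). In control blastocysts it held 20.0 and 24.0 RPKM at 4 h, 24.8 and 23.8 at 7 h, and 27.4 and 25.7 at 10 h. After p38-MAPKi the values were 21.4 and 21.4, 13.7 and 20.9, and 20.2 and 19.2 RPKM. The groups overlapped at 4 h and parted at both later times, with p38-MAPKi below. At 10 h the log2 fold change was -0.43 (95% interval -0.61 to -0.25; limma adjusted p = 0.0681). At 7 h it was -0.52 (-1.03 to -0.02; adjusted p = 0.165), and without the shallow library -0.22.

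Hsph1 encodes HSP110, a nucleotide exchange factor for HSP70 that helps to dissolve protein aggregates (ENSMUSG00000029657.15; chromosome 5, 149614287 to 149636376). Control libraries held 64.0 and 63.9, 65.6 and 62.8, and 64.2 and 60.5 RPKM at the 3 time points. The p38-MAPKi libraries held 65.2 and 51.5 at 4 h, 46.3 and 45.0 at 7 h, and 70.1 and 61.0 at 10 h. The groups were apart at 7 h alone, where the means were 64.2 ± 1.96 and 45.7 ± 0.867 RPKM (SD, n = 2 each). The log2 fold change there was -0.49 (95% interval -0.86 to -0.12; limma adjusted p = 0.0983), against 0.07 at 10 h. The test of the difference between these times gave 0.56 (0.22 to 0.91; limma adjusted p = 0.0824).

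Hspd1 and Hspe1 encode HSP60 and HSP10, the ring and the lid of the mitochondrial folding chamber. Hspd1 (ENSMUSG00000025980.14; chromosome 1, 55077835 to 55088243) was the steadiest member, between 161 and 204 RPKM in all 12 libraries. Its log2 fold changes were 0.02, -0.07, and -0.12 (limma adjusted p = 0.984, 0.801, and 0.422), with a 95% interval of -0.45 to 0.31 at 7 h. The first of these was -0.14 after quantile normalization, and the second 0.12 with each library centred on its median. The p38-MAPKi values at that time, 172 and 163 RPKM, lay just below the controls, 178 and 174.

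Hspe1 (ENSMUSG00000073676.4; chromosome 1, 55088132 to 55091307) held 66.6 and 71.2 RPKM in control blastocysts at 4 h, 77.5 and 59.0 at 7 h, and 69.1 and 61.8 at 10 h. After p38-MAPKi it held 65.9 and 98.1, 123 and 96.0, and 62.9 and 60.0 RPKM. Both p38-MAPKi libraries were above both controls at 7 h, and the groups overlapped at the other times. The log2 fold change at 7 h was 0.68 (95% interval 0.22 to 1.15; limma adjusted p = 0.0802), against -0.09 at 10 h, and the test of that difference gave -0.77 (-1.31 to -0.24; limma adjusted p = 0.0987).

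The ratio of Hspd1 to Hspe1 in RPKM was 2.29 and 2.94 in control libraries at 7 h and 1.40 and 1.69 after p38-MAPKi. At 4 h it was 2.43 and 2.58 in control libraries against 2.58 and 1.83, and at 10 h 2.94 and 2.91 against 2.83 and 2.90. The ratio of the genes of this chamber was thus lower in both p38-MAPKi libraries at 7 h. Fold changes at that time also followed transcript length, and Hspe1 is the shorter gene. The part of length in this ratio was not tested.

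Hspb1 encodes the small heat shock protein HSP25 of mouse (HSP27 in human), which binds actin as well as unfolded proteins (ENSMUSG00000004951.10; chromosome 5, 135887919 to 135889563). Control libraries held 19.7 and 22.6 RPKM at 4 h, 39.0 and 22.1 at 7 h, and 24.4 and 16.3 at 10 h. The p38-MAPKi libraries held 24.8 and 26.0, 35.1 and 37.0, and 29.9 and 28.9 RPKM. Both p38-MAPKi libraries were above both controls at 4 h and 10 h, and at 7 h 1 control library was the highest of all 12.

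The Hspb1 log2 fold changes were 0.27, 0.30, and 0.56, with limma adjusted p = 0.730, 0.461, and 0.154 and a 95% interval of 0.14 to 0.98 at 10 h. Leaving out 1 control library moved the value at 10 h to 0.85 (without the first, adjusted p = 0.0167) or 0.27 (without the second), and that at 7 h to 0.71 or -0.12. A single effect over the 3 time points came to 0.38 (0.08 to 0.67; limma adjusted p = 0.128). Hspb1 was also the only member with an unadjusted limma p under 0.05 between control time points, 0.48 higher on the log2 scale at 7 h than at 4 h (limma adjusted p = 0.582). That p rests on the spread common to genes of like level and not on the spread of Hspb1 between its own libraries. The controls at 7 h that enter this comparison are those of the p38-MAPKi comparison at that time. Without their first library the difference was 0.06, and without the second 0.89. Of the 50-base windows of Hspb1 transcripts 50.1% occur in another gene, mostly in the annotated copy Hsp25-ps1. For Hsp90aa1 this share was 47.5%, for Hspd1 42.1%, for Hspa8 39.4%, and for Hspe1 22.8%, while it was 3.44% for Hsp90ab1, 0.412% for Dnajb1, and 0 for Hsph1.

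**Figure D3:**
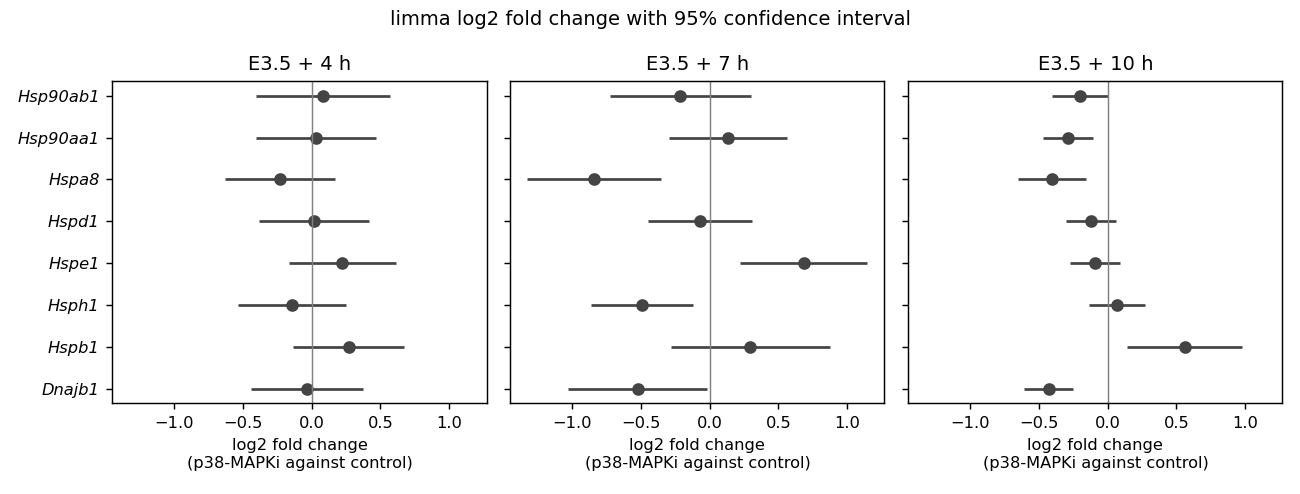
limma log2 fold change of p38-MAPKi against control (points) with its 95% confidence interval (lines) for the 8 tested chaperones at each time point. Intervals leave 0 for Hspa8, Hspe1, Hsph1, and Dnajb1 at 7 h and for Hsp90aa1, Hspa8, Hspb1, and Dnajb1 at 10 h, and no adjusted p was under 0.05.

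Over time in control blastocysts, 0 of the 8 members were called between 4 h and 7 h by limma, against 0.492% of all genes, 0 between 7 h and 10 h, against 0.0552%, and 0 between 4 h and 10 h, against 0.471%. Without adjustment the counts were 1, 0, and 0, against 4.79%, 3.79%, and 15.2% of all genes. For controls at 7 h against 4 h, the p-values rest on the spread common to genes of like level. The p38-MAPKi effect differed between time points for 0 of the 8, with 0.00884% of all genes called between 4 h and 7 h, 0.00877% between 7 h and 10 h, and 0% between 4 h and 10 h. Without adjustment, 0, 3, and 0 members had a limma p under 0.05 in these tests, where 6.83%, 26.3%, and 9.86% of all genes did. The 3 between 7 h and 10 h were Hspe1, Hsph1, and Hsp90aa1. The effect common to the 3 time points was called for 0 of 8, against 2.67% of all genes, with 3 of 8 under 0.05 without adjustment, where 25.0% of all genes were.

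At 7 h the fold changes of all genes followed the length of the transcript. Across 10929 genes, which are not independent of each other, Spearman's rho of length and log2 fold change was -0.462, against -0.365 at 4 h and 0.061 at 10 h. The median log2 fold change at 7 h was 0.44 over genes of up to 1500 bases and -0.35 over genes of 4000 bases or more. Hspe1 (1474 bases) and Hspb1 (1031 bases) belonged to the short group, and Hspa8 (4301) and Hsph1 (7266) to the long one.

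With the trend of each library on length removed, the log2 fold change at 7 h was 0.35 for Hspe1 and -0.25 for Hsph1, each closer to 0 than before. It was -0.12 for Hspb1, on the other side of 0. Hsp90ab1 stood at -0.29, Hspd1 at -0.20, and Hsp90aa1 at 0.16, each farther from 0 than before. For Hspa8 it was -0.78 and for Dnajb1 (3204 bases) -0.58, close to the values before. The median over all genes tested at 7 h was -0.12 after this step, so 0 is not where the typical gene stood. At 10 h, where there was little trend, the same step left Hspa8 at -0.42, Hspb1 at 0.59, and Dnajb1 at -0.43, and Dnajb1 then passed the threshold (limma adjusted p = 0.0359).

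**Figure D4:**
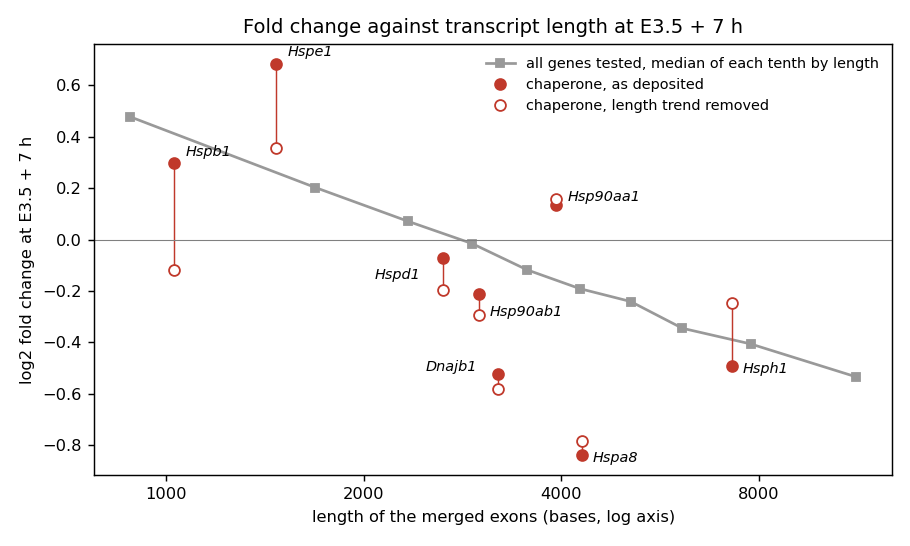
log2 fold change at 7 h against the length of the merged exons (log axis) for the 8 tested chaperones, as deposited (filled) and with the length trend of each library removed (open), with the median of all genes in 10 bins by length (grey squares). The grey line, drawn from the values as deposited, falls from 0.48 to -0.53. Hspa8, Dnajb1, Hsp90ab1, Hspd1, and Hspb1 lie below it in both forms.

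Around these chaperones, 11 lists of pathway genes were read in the same fits. Of 15 HSP90 co-chaperones, led in level by Fkbp4 (mean 424 RPKM) and Stip1 (345 RPKM), which links HSP70 to HSP90, 0 of 15 tested were called at any time point. The same count, 0, held for the 5 or 6 tested of 9 other HSP70 and HSP110 genes (Hspa9 200 and Hspa4 97.3 RPKM) and the 6 or 7 tested of 7 nucleotide exchange factors (Bag1 154 and Bag3 61.3 RPKM). It held for the 8 subunits of the cytosolic chaperonin TRiC (Cct2 303 and Cct5 260 RPKM), the 6 of prefoldin (Pfdn6 129 and Pfdn1 76.0 RPKM), and 9 mitochondrial chaperones and proteases (Clpp 125 and Lonp1 85.2 RPKM). None of the 4 tested of 8 other small heat shock proteins was called (Cryab 31.9 and Hspb8 25.0 RPKM). These counts stand beside the 0.909%, 2.13%, and 0.803% of all genes called.

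Of 14 other cytosolic J-domain proteins, 13 were tested (Dnaja2 93.0 and Dnajc8 71.3 RPKM). The one call was Dnajc9, a histone chaperone and J-domain protein, in the effect common to the time points, where 2.67% of all genes were called. It held 14.1 to 19.5 RPKM in control libraries and 19.4 to 26.7 after p38-MAPKi, and its log2 fold change was 0.47 (95% interval 0.26 to 0.68; limma adjusted p = 0.0280). Leaving out any of 8 of the 12 libraries took the adjusted p over 0.05, as did limma without the trend (0.0541) and no filter on low values (0.105).

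Of 7 heat shock factors and HSF1 regulators, 4 were tested and 0 called. Hsf1 itself held 11.3 to 21.7 RPKM, and Hsbp1, an inhibitor of HSF1, averaged 72.8 RPKM. At 7 h Hsf1 held 11.3 (the shallow library) and 17.0 RPKM after p38-MAPKi, against 18.9 and 20.9 in controls. Hsbp1 held 96.6 and 86.0 RPKM, against 75.8 and 58.7. At that time 2 of the 4 had an unadjusted limma p under 0.05, where 28.4% of all genes did, and at 4 h and 10 h 0 did. Of 9 genes from p38-MAPK to MAPKAPK, 8 were tested and 0 called. Mapk14, which encodes p38 alpha, held 18.9 to 28.5 RPKM, Mapkapk2 11.6 to 18.5, and Map2k3, a kinase upstream of p38-MAPK, averaged 29.9.

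Among 14 chaperones of the endoplasmic reticulum, all tested, 6 fell after p38-MAPKi at 10 h, where 0.803% of all genes were called. Of the 14, 13 had an unadjusted limma p under 0.05, where 19.8% of all genes did, and the median log2 fold change was -0.43, beside -0.02 over all genes and -0.16 over the 8 members, none of which was called. The difference between these lists was not tested. Called were Hspa5 (-0.75), the HSP70 of that compartment, Hsp90b1 (-0.60), its HSP90, Dnajb9 (-0.90), one of its J-domain proteins, Pdia6 (-0.51), a disulfide isomerase, and Manf (-0.77) and Creld2 (-0.61), which are induced when proteins misfold there. The limma adjusted p-values ran from 0.0367 to 0.0398, and the count was 0 of 14 in limma without the trend, with no filter on low values, and in 1 fit over the 12 libraries, which left the fold changes as they were. It was 5 to 10 in the other settings, with 8 after removal of the length trend and 9 with voom or the replicate block. None of the 14 was called at 4 h or 7 h, where 0 and 1 had an unadjusted p under 0.05, against 9.42% and 28.4% of all genes. The most abundant, Calr, averaged 411 RPKM. At 10 h the median was -0.14 for HSP90 co-chaperones (13 of 15 lower) and -0.19 for other HSP70 and HSP110 genes (6 of 6). TRiC stood at -0.155 (7 of 8) and prefoldin at -0.16 (6 of 6). Of these, 5, 3, 4, and 2 had an unadjusted limma p under 0.05 (19.8% of all genes). Mitochondrial genes (-0.09), J-domain proteins (-0.08), nucleotide exchange factors (-0.17), and other small heat shock proteins (-0.24) were negative too. Heat shock factors (0.04) and p38-MAPK kinases (0.03) were positive.

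The cytosolic and reticulum forms can be set side by side within each library. The ratio of Hspa8 to Hspa5 in RPKM was 0.776 and 0.949 in control libraries at 4 h, 0.857 and 0.864 at 7 h, and 0.967 and 1.02 at 10 h. After p38-MAPKi it was 0.804 and 0.667, 0.505 and 0.590, and 1.28 and 1.25. It was thus below the controls at 7 h, where Hspa8 was low and Hspa5 held 184 and 235 RPKM against 230 and 241, and above them at 10 h, where Hspa5 held 126 and 147 against 216 and 244. Hsp90ab1 over Hsp90b1 was 9.15 and 9.77 in controls at 10 h and 12.5 in both p38-MAPKi libraries. At 7 h it was 9.47 and 11.4 against 8.85 and 9.67, and the groups overlapped.

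**Figure D5:**
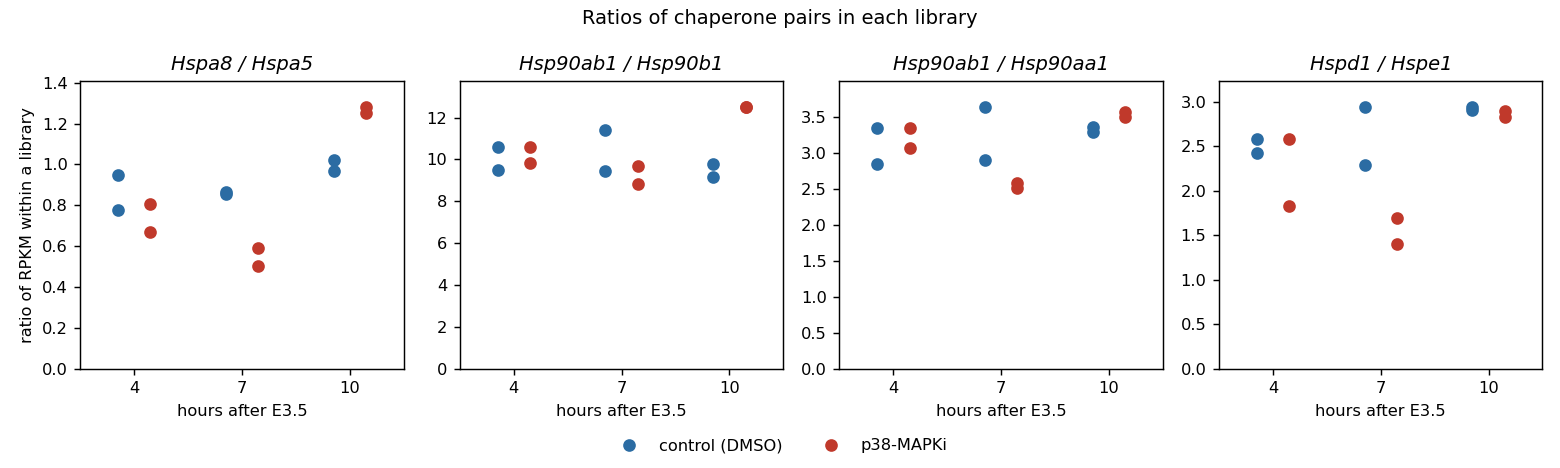
Ratio of RPKM within each library for 4 pairs of chaperones by hours after E3.5, control in blue and p38-MAPKi in red, 1 point per library. Hspa8 over Hspa5 is lower after p38-MAPKi at 7 h (0.505 and 0.590 against 0.857 and 0.864) and higher at 10 h (1.28 and 1.25 against 0.967 and 1.02).

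Markers of the embryo's lineages moved with the groups at some times. The summed level of 8 primitive endoderm genes was 120 to 126 RPKM after p38-MAPKi and 178 to 193 in controls at 7 h, the time at which Hspa8, Hsph1, and Hspe1 were farthest from their controls, and 184 to 190 against 183 to 186 at 10 h. The sum of 9 epiblast genes was 590 to 616 against 657 to 660 RPKM at 10 h and overlapped at 7 h, while that of 9 trophectoderm genes overlapped at both. The epiblast and trophectoderm sums rest mainly on Pou5f1 and on Krt8 and Krt18, and the primitive endoderm sum on Gata6 and Dab2. At 7 h Gata6 averaged 83 RPKM after p38-MAPKi and 115 in controls, and Dab2 26.1 and 52.4. Single markers stood apart. Of the 8 trophectoderm genes tested, Id2 was called lower after p38-MAPKi at 4 h, where 0.909% of all genes were called. Cdx2, Gata3, and Id2 were called lower in the effect common to the time points, against 2.67%, and each lay below both controls at all 3 times. Cdx2 held 158 and 144 RPKM after p38-MAPKi at 7 h, against 237 and 190. Of the 6 primitive endoderm genes tested, Dab2 was called lower at 7 h, with 24.0 and 28.3 against 57.5 and 47.3 RPKM. Of 9 epiblast genes, 8 had a negative log2 fold change at 7 h, with a median of -0.30 beside -0.14 over all genes, and 3 had an unadjusted limma p under 0.05, where 28.4% of all genes did. Of these lists, 6, 9, and 8 genes passed 1 RPKM in 2 libraries, and Foxa2, of the primitive endoderm, reached at most 0.0338 RPKM. The part of these markers in the values of the chaperones was not tested.

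As a description over the 12 libraries, which share their depths and length trends, the log2 RPKM of Hsp90ab1 was most like that of Mafg (Pearson's r = 0.919), Xbp1 (0.910), and Larp1 (0.908) among 3967 genes with at least 10 RPKM in every library. For Hspb1 the 3 most alike were Pcmt1 (0.887), 2310011J03Rik (0.867), and Perp (0.866).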

How the data were processed

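Single-end reads of 50 bases from poly(A) RNA were processed, per the submitters' notes and the study's methods, with Trim Galore 0.4.1 for trimming, HISAT2 2.0.5 for mapping onto the GRCm38 assembly, and SeqMonk for quantification per gene. The authors deposited the result as log2 RPKM, with replicates apart. The strand option and the handling of reads that map to several places are not given in the sources used here. Where a gene had no read, its value was that of 0.9 read, so depth and whole reads could be recovered, for 34243 of 34245 genes, with merged exon lengths of GENCODE M21. Gene identifiers were matched by coordinates to that annotation.

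Genes reaching 1 RPKM in 2 or more libraries of a comparison were tested on the deposited log2 values with limma 3.58.1 (lmFit, eBayes with the trend; R 4.3.3), fitted on the whole table and adjusted over all genes tested. For p38-MAPKi against control at 4 h, and for controls at 7 h against 4 h, limma gave all genes the spread of the trend. p38-MAPKi was compared with control at each time point, between time points as an interaction, and over all 12 libraries with time as a term. Control time points were compared with each other. The fits were tested on simulated data. The members, lists, and tests were chosen with earlier results of these data known. Named were all 10 members, genes of the pathway lists that were called, the 2 most abundant genes of each list, the 3 genes most like Hsp90ab1 and Hspb1, and Mapk14, Mapkapk2, and Hsf1. Lineage and other cell type markers were named after their values were seen. Voom and the fits of Hspa1a and Hspa1b without the filter were added after seeing the data. Python 3.11.15 was used for the rest.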

Additional observations from a re-analysis of the deposited data

How the results depend on the processing

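No member was called in any comparison, and this count depended on the processing at 7 h and 10 h. At 7 h the number of members called was 2 with no filter on low values (3.61% of all genes), 2 with at least 10 RPKM (18.6%), 1 at log2(RPKM + 5) (5.91%), 4 in 1 fit over the 12 libraries (23.6%), 3 at a threshold of 0.1 (15.3%), and 3 with voom (15.9%). At 10 h it was 1 with the length trend removed (2.58% of all genes), 1 with at least 10 RPKM (3.22%), 1 at a threshold of 0.1 (4.71%), and 3 with voom (4.82%). For the effect common to the time points it was 1 (Hspa8) with each library centred on its median (5.04%). The cause was not tested. Leaving out 1 library gave 0 to 3 members at 7 h (3, Hspa8, Dnajb1, and Hspe1, without the second p38-MAPKi library, with 27.4% of all genes), 0 to 1 at 10 h (Hspb1, without the first control library, 1.27%), 0 to 3 for the difference between 7 h and 10 h (3 without that p38-MAPKi library, 25.8%, and 1 without the first control library at 7 h, 7.53%), 0 to 1 between controls at 7 h and 4 h (without the second library at 7 h, 0.349%), 0 to 2 between controls at 10 h and 4 h (without the second library at 4 h, 11.5%), and 0 to 1 for the common effect (Hspa8, without the first control library at 4 h, 1.02%). At 4 h it was 0 in every setting. With 1 library left in a group, that library is assumed to vary like the others.

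With the replicate number as a block, 3 members were called at 7 h (Hspa8, Hsph1, and Hspe1), where 18.5% of all genes were, 3 at 10 h (Hspa8, Dnajb1, and Hspb1), where 3.74% were, and 0 in the other comparisons. The labels do not say that the number marks a shared batch, and the differences between replicates of the 2 groups had a correlation of -0.012, 0.162, and 0.167 at the 3 time points.

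Directions turned for these values. At 4 h, quantile normalization gave -0.14 for Hsp90ab1, -0.18 for Hsp90aa1, and -0.14 for Hspd1, and Hspd1 was -0.0077 with centring on the median and -0.069 after removal of the length trend. At 7 h, Hspd1 was 0.12 with median centring, Hsp90aa1 -0.25 with quantile normalization, and Hspb1 -0.12 with the length trend removed. The common effect of Hsp90aa1 was 0.014 with median centring. Leaving out 1 library at 4 h gave -0.097 to 0.26 for Hsp90ab1, -0.089 to 0.15 for Hsp90aa1, -0.075 to 0.11 for Hspd1, -0.50 to 0.038 for Hspa8, -0.17 to 0.095 for Dnajb1, -0.31 to 0.028 for Hsph1, and -0.064 to 0.51 for Hspe1. It gave -0.12 to 0.71 for Hspb1 at 7 h, -0.031 to 0.17 for Hsph1 at 10 h, and -0.085 to 0.012 for the common effect of Hsp90aa1. All other p38-MAPKi effects of the tested members kept their direction under every setting run. Between control time points, and for differences between time points, direction was followed only for members with an unadjusted limma p under 0.05. Those members kept it.

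Over all genes, the number called ran over the settings from 0 to 424 at 4 h (98 in the fit reported), 0 to 2919 at 7 h (233), 0 to 528 at 10 h (88), and 9 to 589 for the common effect (310). For the differences between time points it ran from 0 to 293 (4 h and 7 h, 1), 0 to 2905 (7 h and 10 h, 1), and 0 to 557 (4 h and 10 h, 0), and between controls from 0 to 58 (7 h and 4 h, 53), 2 to 221 (10 h and 7 h, 6), and 26 to 1228 (10 h and 4 h, 51). The median of all genes tested moved from -0.14 to 0.05 at 7 h when libraries were centred. Hspa1a and Hspa1b had too few reads for the tests. The 2 planned negative binomial models of whole reads were not run. Voom on the recovered reads was chosen in their place after seeing the data.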
